A study of Mus musculus with 6 samples.

Results

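The genes described here handle iron in the mouse microglial line BV-2: they take it up, store it, release it from haem, export it or sense it. The 10 genes were chosen by name, Slc40a1, Tfrc, Fth1, Ftl1, Hmox1, Slc11a1, Slc11a2, Ireb2, Steap3 and Hfe, and each was read from the brightest array row annotated to that gene alone. Such a row was found for 9 of the 10 genes, out of 22180 genes with a row of their own. The exception was Ftl1, the ferritin light chain, whose 6 rows were all annotated to copies of the gene as well and are described as shared rows. BV-2 cells are mouse microglia, the macrophages of the brain, immortalised by retroviral raf and myc oncogenes, and all arrays come from this single line. The series holds 3 control arrays, labelled as resting cells, and 3 arrays of cells given lipopolysaccharide (LPS) of Escherichia coli O111:B4, a bacterial cell wall component, at 1 µg/mL for 24 h. The plating medium of all cells held less serum than the growth medium, and the labels state neither a vehicle nor a collection time for the controls. Replicates are numbered within each group without saying whether they were separate cultures, so the p-values cover only the variation among these 6 arrays, which may be of technical origin.

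Cells take up transferrin-bound iron through the transferrin receptor (Tfrc), reduce it in the endosome with Steap3 and move it to the cytosol through Slc11a2 (DMT1). Iron that is not used is stored in ferritin, a shell of heavy (Fth1) and light (Ftl1) chains, or leaves through ferroportin (Slc40a1), the known iron exporter of mammalian cells. Macrophages also free iron from haem with haem oxygenase 1 (Hmox1) and remove metal from phagosomes with Slc11a1 (NRAMP1). Iron regulatory proteins such as Ireb2 bind the messages of Tfrc, ferritin and ferroportin, so that much of the control of these proteins acts on translation and message stability, and the arrays read only RNA.

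In these data 5 of the 9 genes, Slc11a2, Slc40a1, Hmox1, Slc11a1 and Fth1, were higher on every LPS array than on every control array, and 0 were lower on every LPS array. Mean fold changes ran from 3.35-fold for Slc11a2 through 1.92-fold for Hmox1, 1.89-fold for Slc40a1 and 1.77-fold for Slc11a1 to 1.22-fold for Fth1. Of all rows, 7.74% had every LPS array above the controls and 3.48% every LPS array below, and among genes above the background guide, to which all 9 belong, the shares were 14.2% and 1.92%. That guide is the 95th percentile, 3.08 on the log2 scale, of the mean levels of 1443 rows for odorant, pheromone and taste receptors. None of the 9 passed limma's test after Benjamini-Hochberg adjustment over all 41345 rows (0 higher and 0 lower at adjusted p under 0.05), where 0.193% of rows, and 0.578% of genes above the guide, were called higher and 0% of rows lower. At an unadjusted p under 0.05, 4 were higher and 0 lower, against 10.1% and 1.44% of genes above the guide and 4.98% and 1.4% of all rows. Log2 fold changes were above 0 for 8 of the 9, with a median of 0.29, beside 0.12 for the 10891 genes above the guide and 0.03 for all rows.

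**Figure D1:**
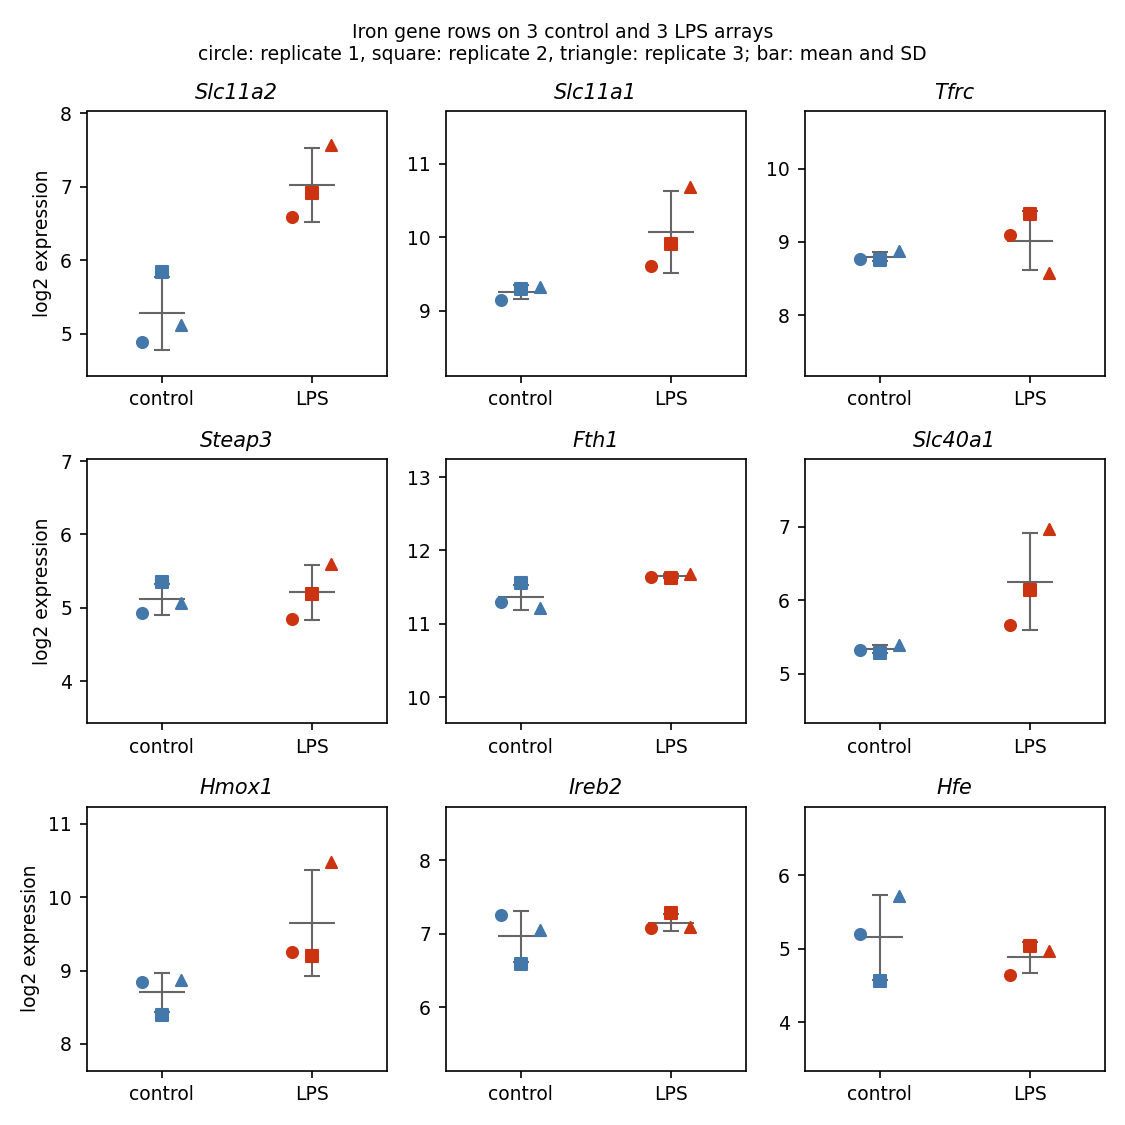
Log2 expression (vertical axis, the same span in every panel) of the 9 genes on 3 control arrays (blue) and 3 LPS arrays (red), with the mean and SD of each group. Slc11a2, Slc11a1, Fth1, Slc40a1 and Hmox1 show no overlap between groups, and LPS replicate 3 is the highest LPS array for 6 of the 9 genes.

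All arrays had medians between 2.88 and 2.97, but brighter rows differed between arrays of a group. Over 19060 rows above the guide, control replicate 2 lay a median of 0.26 log2 units below the other controls (-0.26), LPS replicate 1 below the other LPS arrays (-0.20) and LPS replicate 3 above them (0.14). The 10 markers of macrophages and microglia, such as Csf1r, Itgam and Cd68, were all above the guide, with 0 called. Of these, Adgre1, named for its values, was higher on every LPS array, at 9.84, 10.10 and 10.24 against 9.11, 8.23 and 9.09 in controls, a log2 fold change of 1.25. So was Ptprc, likewise named for its values, at 9.49, 9.66 and 9.69 against 9.21, 9.17 and 9.24, a log2 fold change of 0.41. The rest of the 10 had overlapping groups. Their log2 fold changes were -0.28 for Itgam, -0.18 for Tyrobp, -0.14 for Cd68 and -0.11 for Cx3cr1. For Aif1, Csf1r, Fcer1g and Spi1 they were 0.12, 0.05, 0.03 and 0.0017. The summed level of the 10 markers was 12.42 to 12.58 on the log2 scale on control arrays, and 12.37, 12.53 and 13.02 in LPS replicates 1, 2 and 3. The part of these differences between arrays in the results below was not tested. Markers of astrocytes, oligodendrocytes, hepatocytes and red cell precursors, read for 4, 3, 4 and 2 genes, had 0 members above the guide, while neurons and endothelium had 1 of 4 each, Rbfox3 and Kdr. Rbfox3 read 3.33 to 3.64 over all arrays, close to the guide, and Kdr 8.56 to 9.20, far above it. Of the macrophage and microglia markers, Aif1 at 3.61 to 4.18 and Cx3cr1 at 3.40 to 3.94 were also not far above the guide.

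Upstream sequences from RefSeq (GRCm38.p6) were listed for 7 of the 10 genes, at 12 start sites, and 250 bases before each start were searched on both strands. Shown here are the windows of Slc11a1 and Fth1, which had no overlap between groups, and of Hfe, whose groups overlapped and whose window alone held AP-1 and interferon motif matches. Capitals mark every match to 7 motifs: NF-kappaB (GGANTTTCC), the interferon-stimulated response element (GAAANNGAA), AP-1 (TGANTCA), the antioxidant response element (TGACNNNGC), the E-box (CANGTG), the inverted CCAAT box (ATTGG) and the PU.1 core (GAGGAA).
Slc11a1, chr1:74374953-74375202, plus strand: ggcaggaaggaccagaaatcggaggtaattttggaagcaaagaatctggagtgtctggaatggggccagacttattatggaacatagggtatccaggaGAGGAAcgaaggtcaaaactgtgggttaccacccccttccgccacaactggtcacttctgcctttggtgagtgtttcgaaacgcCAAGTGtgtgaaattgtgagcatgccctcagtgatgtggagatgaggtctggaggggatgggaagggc
Fth1, chr19:9982396-9982645, plus strand: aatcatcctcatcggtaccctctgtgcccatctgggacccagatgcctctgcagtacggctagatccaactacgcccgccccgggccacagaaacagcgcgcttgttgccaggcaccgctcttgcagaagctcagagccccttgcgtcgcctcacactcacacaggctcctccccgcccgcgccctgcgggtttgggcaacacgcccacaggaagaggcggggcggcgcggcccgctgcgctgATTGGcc
Hfe, chr13:23710855-23711104, minus strand: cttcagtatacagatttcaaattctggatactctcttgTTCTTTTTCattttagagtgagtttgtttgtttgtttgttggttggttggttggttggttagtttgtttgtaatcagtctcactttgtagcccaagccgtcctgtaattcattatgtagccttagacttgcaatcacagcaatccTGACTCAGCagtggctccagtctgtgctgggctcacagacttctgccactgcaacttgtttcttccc
In the Slc11a1 window the matches were a PU.1 core and an E-box, the latter 68 to 63 bases before the start. The Fth1 window, at the second of its 2 listed starts, held an inverted CCAAT box alone. The window of the first start, not shown, held E-box matches 238 to 233 and 196 to 191 bases before the start. In Hfe the AP-1 match lay inside the antioxidant response element match, 67 to 59 bases before the start. It also held the interferon motif on the reverse strand, 212 to 204 bases before the start. The NF-kappaB motif was found in 0 of the 12 windows, and in 1.07% of all 32536 windows of this length. The interferon motif, AP-1 and the antioxidant response element were each found in 1 of the 12, beside 7.15%, 6.73% and 10.2% of all windows. The E-box and the inverted CCAAT box were each found in 4 of the 12, beside 39.5% and 33.8%. The PU.1 core was found in 3 of the 12, beside 23.4%. A match is a string of letters and not a binding site, and a window without one says nothing of elements elsewhere.

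Slc11a2, the proton-coupled transporter that moves ferrous iron across the endosomal and plasma membranes, had the largest fold change of the 9. Its log2 expression was 4.88, 5.84 and 5.11 in control replicates 1, 2 and 3, and 6.59, 6.91 and 7.57 in LPS replicates 1, 2 and 3. The lowest LPS array stood 0.75 above the highest control, which was control replicate 2. Group means were 5.28 ± 0.50 in controls and 7.02 ± 0.50 after LPS (SD, n = 3). They differed by 1.74 log2 units (SE 0.34, 95% confidence interval 0.94 to 2.54), and the limma adjusted p = 0.23. Single LPS arrays were 2.48, 3.11 and 4.89 times the control mean. Slc11a2 passed the test once control replicate 2 and LPS replicate 3 were dropped together, a fit of 2 arrays a group with a log2 fold change of 1.75 and limma adjusted p = 0.039, in which 152 of all rows were called higher and 67 lower, against 80 and 0 with all arrays.

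Slc11a1, its relative, is found in the late endosomes and phagosomes of macrophages, where it moves iron and manganese away from ingested microbes. Control arrays read 9.14, 9.30 and 9.31, and LPS arrays 9.61, 9.91 and 10.69. The controls lay within 0.18 of each other and the LPS arrays spread over 1.08, with LPS replicate 3 the highest. LPS minus control came to 0.82 log2 units (SE 0.28, 95% confidence interval 0.16 to 1.48; limma adjusted p = 0.63). Without LPS replicate 3 it was 0.51 (limma adjusted p = 0.56), and LPS replicates 1, 2 and 3 were 1.29, 1.58 and 2.71 times the control mean.

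Tfrc, the receptor that brings transferrin into the cell, had overlapping groups. Control arrays read 8.77, 8.76 and 8.88, within 0.12 of each other. LPS replicates 1 and 2, at 9.09 and 9.38, were above all controls, and LPS replicate 3, at 8.58, was below them all. The group means differed by 0.22 (SE 0.22, 95% confidence interval -0.30 to 0.74; limma adjusted p = 1), which leaves room for fold changes between 0.81 and 1.67. Without LPS replicate 3 it was 0.43 (limma adjusted p = 0.63), and without LPS replicate 2 it was 0.04. Steap3, the endosomal ferrireductase, read 4.93, 5.35 and 5.06 in controls and 4.85, 5.18 and 5.60 after LPS, so that the groups overlapped on both sides. Its log2 fold change was 0.10 (95% confidence interval -0.44 to 0.64), and it was -0.08 after quantile normalization and -0.10 without LPS replicate 3.

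Fth1, the ferritin heavy chain with the ferroxidase centre, differed little between groups and hardly between LPS arrays. It read 11.30, 11.55 and 11.22 in controls and 11.64, 11.62 and 11.67 after LPS. The highest value of any row on any array was 11.97, and 99.95% of rows had a lower mean than Fth1. Whether readings this high are compressed was not tested. All LPS arrays were above all controls, by a gap of 0.07 between the lowest LPS array and control replicate 2. The difference of means was 0.29 (SE 0.14, 95% confidence interval -0.05 to 0.63; limma adjusted p = 0.88), or 1.22-fold with an interval of 0.96 to 1.55. Without control replicate 2 the log2 fold change was 0.39, and after quantile normalization it was 0.26 and the groups overlapped.

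The light chain of ferritin could not be read alone, since its 6 rows are also annotated to Ftl1-ps2, and 4 of them to Ftl2-ps as well. These rows gave 5 distinct profiles, because a pair of rows held the same 6 values. The brightest profile read 11.44, 10.95 and 11.34 in controls and 11.22, 11.24 and 11.61 after LPS. It too lay near the highest value on any array, 11.97. The groups separated in 0 of the 6 rows, in either direction. Log2 fold changes ran from -0.43 to 0.27, and the smallest limma adjusted p was 0.93. The 95% confidence intervals of the shared rows together spanned -1.12 to 0.86 on the log2 scale.

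**Figure D2:**
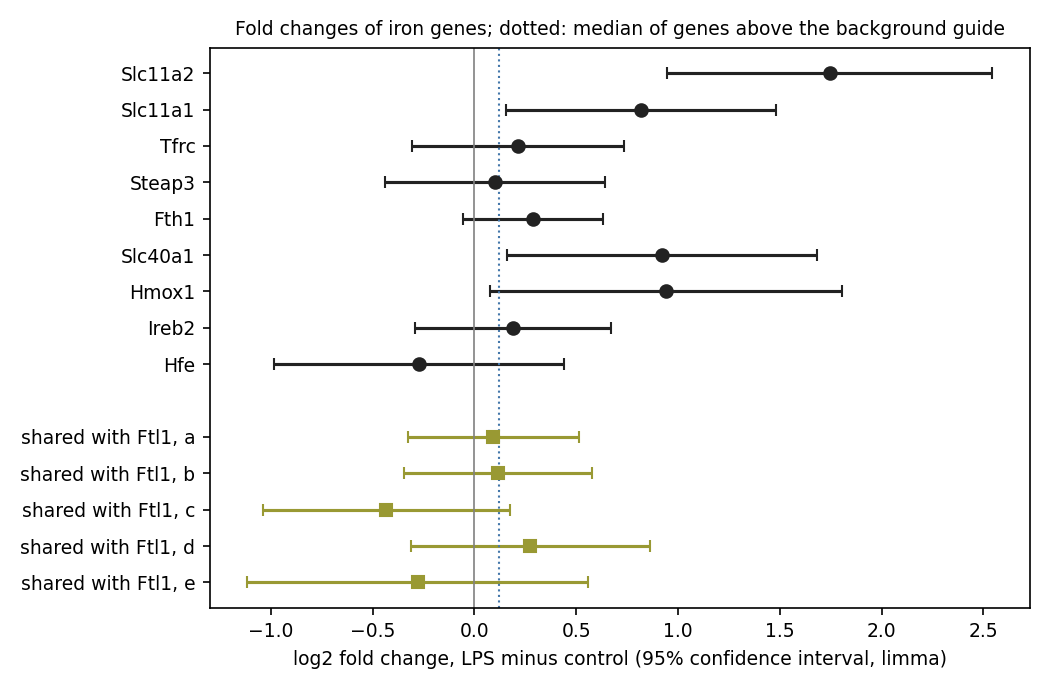
Log2 fold change of LPS over control (horizontal axis) with limma's 95% confidence interval for 9 genes (circles) and for the 5 distinct profiles of rows shared with Ftl1 (squares, a to e). The dotted line is the median of 10891 genes above the background guide, 0.12. Intervals of Slc11a2, Slc11a1, Slc40a1 and Hmox1 lie above 0, and the other 5 genes and all shared rows have intervals that include 0.

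Slc40a1 codes for ferroportin, which exports ferrous iron and is removed from the membrane when hepcidin binds it. Control arrays read 5.32, 5.28 and 5.39, a range of 0.11. LPS arrays read 5.66, 6.13 and 6.96, a range of 1.30. Every LPS array was above every control, at 1.26, 1.74 and 3.10 times the control mean in replicates 1, 2 and 3. On the log2 scale the means differed by 0.92 (SE 0.32, 95% confidence interval 0.16 to 1.68; limma adjusted p = 0.65), and without LPS replicate 3 it was 0.57 (limma adjusted p = 0.57).

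Hmox1 encodes the inducible haem oxygenase, which opens haem to biliverdin, carbon monoxide and free iron. It read 8.84, 8.39 and 8.87 in controls and 9.25, 9.20 and 10.48 after LPS. LPS replicates 1 and 2 were close to each other, the lower of them 0.33 above the highest control, while LPS replicate 3 stood 1.25 above their mean. The log2 fold change was 0.94 (SE 0.36, 95% confidence interval 0.08 to 1.81; limma adjusted p = 0.72). It was 0.53 without LPS replicate 3 and 0.37 without that array and control replicate 2, with limma adjusted p = 0.63 and 0.49.

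Among the genes that sense iron, Ireb2, iron regulatory protein 2, read 7.26, 6.58 and 7.05 in controls and 7.08, 7.28 and 7.09 after LPS. The LPS values lay inside or just above the control range, in which control replicate 2 was the lowest. Its log2 fold change was 0.19 (95% confidence interval -0.29 to 0.67), and it was -0.0055 after quantile normalization and -0.0024 without control replicate 2. Hfe, a class I-like protein that binds the transferrin receptor and takes part in hepcidin signalling in liver, was the only one of the 9 with a negative log2 fold change. It read 5.19, 4.56 and 5.72 in controls, the widest control range of the 9 at 1.16, and 4.65, 5.03 and 4.97 after LPS. The log2 fold change was -0.27 (95% confidence interval -0.99 to 0.44; limma adjusted p = 1), -0.57 without control replicate 2 and 0.0053 without control replicate 3.

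LPS arrays differed from each other more than control arrays did for 6 of the 9 genes. In LPS replicate 3, compared with the mean of LPS replicates 1 and 2, Hmox1 was higher by 1.25, Slc40a1 by 1.07, Slc11a1 by 0.93, Slc11a2 by 0.82 and Steap3 by 0.59. In the same comparison Tfrc differed by -0.65, Ireb2 by -0.09, Fth1 by 0.04 and Hfe by 0.13. The median of the 9 differences was 0.59, beside 0.14 over all rows above the guide. The array with the highest Hmox1 and Slc40a1 thus also had the lowest Tfrc of the series. This contrast rests on 1 array and has no replicate.

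**Figure D3:**
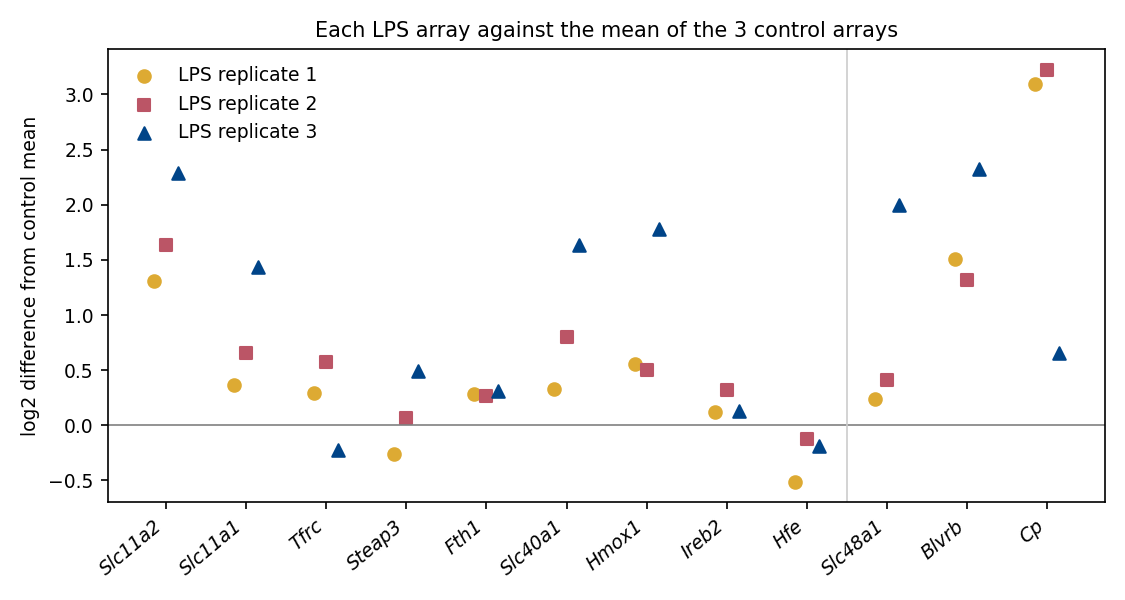
Difference of each LPS array from the mean of the 3 control arrays on the log2 scale (vertical axis) for the 9 genes and, right of the grey line, 3 other haem and iron genes. LPS replicate 3 (triangles) is above the other LPS arrays for Slc11a2, Slc11a1, Steap3, Fth1, Slc40a1, Hmox1, Slc48a1 and Blvrb. It is below them for Tfrc and Cp. For Fth1 it exceeds their mean by 0.04.

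The other genes of iron and haem handling were taken from 9 lists with 57 further genes, of which 52 had a row of their own and 37 lay above the guide. Of these 52, 1 was called higher and 0 lower by limma at adjusted p under 0.05, and at an unadjusted p under 0.05 7 were higher and 0 lower. Over all rows these shares were 0.193% and 0% called, and 4.98% and 1.4% at the unadjusted threshold. Over genes above the guide 0.578% were called higher, and 10.1% were higher and 1.44% lower at the unadjusted threshold. The groups separated upward for 9 of the 52, which besides the 6 described below with their values were Slc48a1, Fbxl5 and Ltf, and downward for 2, Cd163 and Tmprss6 (these 5 are named for their values, and Ltf, Cd163 and Tmprss6 lie below the guide). Both counts stand beside shares of 7.74% and 3.48% over all rows and 14.2% and 1.92% over genes above the guide. The median log2 fold change was 0.06. The gene called was Lcn2, lipocalin 2, which binds bacterial siderophores and so keeps iron from microbes. It read 3.73, 3.86 and 3.70 in controls and 9.83, 9.67 and 9.64 after LPS, a 62.0-fold rise (limma adjusted p = 6e-05), and it was called in all 15 alternative fits. Of the other 3 genes of its list, the lipocalin 2 receptor Slc22a17, lactoferrin (Ltf) and Bdh2, 0 passed.

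Among ferroxidases and hepcidin, 0 of 4 further genes passed. Cp, ceruloplasmin, oxidises the ferrous iron that ferroportin releases. It read 4.14, 4.25 and 3.89 in controls and 7.19, 7.32 and 4.75 after LPS. LPS replicates 1 and 2 were 8.56 and 9.34 times the control mean, and LPS replicate 3 was 1.57 times. The log2 fold change was 2.32 (SE 0.66, limma adjusted p = 0.48), and without LPS replicate 3 it was 3.16 with limma adjusted p = 0.0077. With any other single array left out it ran from 1.88 to 2.40 and did not pass (limma adjusted p of 0.43 or more). The hepcidin gene Hamp had levels of 1.30 to 1.61 in controls and 1.51 to 1.96 after LPS, all below the guide.

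Of 10 further genes of haem uptake, breakdown and export and 7 of haem synthesis, 0 passed the adjusted test, and 1 and 2 were higher at an unadjusted p under 0.05. The shares higher at that threshold were 10.1% of genes above the guide, where 7 of each list lie, and 4.98% of all rows. Blvrb, biliverdin reductase B, read 5.87, 5.61 and 5.84 in controls and 7.28, 7.09 and 8.10 after LPS. It was higher by 1.72 log2 units (SE 0.27, limma adjusted p = 0.13). It passed where only rows with 1 symbol were tested (limma adjusted p = 0.047) and with 1 row per gene (limma adjusted p = 0.043), and not with dim rows left out (limma adjusted p = 0.064). Its counterpart Blvra had -0.29 and the constitutive oxygenase Hmox2 -0.17, with overlapping groups, and both were picked for comparison with values known. In haem synthesis, the first enzyme Alas1 read 7.86, 6.87 and 7.92 in controls and 8.23, 8.52 and 9.07 after LPS. The last enzyme Fech read 6.22, 5.16 and 6.42, then 6.70, 7.06 and 6.98. In both, control replicate 2 was the lowest array, and they had log2 fold changes of 1.06 and 0.98 (limma adjusted p = 0.59 and 0.64), or 0.72 and 0.60 without control replicate 2 and 0.49 and 0.56 without that array and LPS replicate 3. Slc48a1, which carries haem out of lysosomes, is named because of its values: its groups did not overlap, and LPS replicate 3, at 10.24, stood 1.68 above the mean of the other LPS arrays at 8.48 and 8.65.

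**Figure D4:**
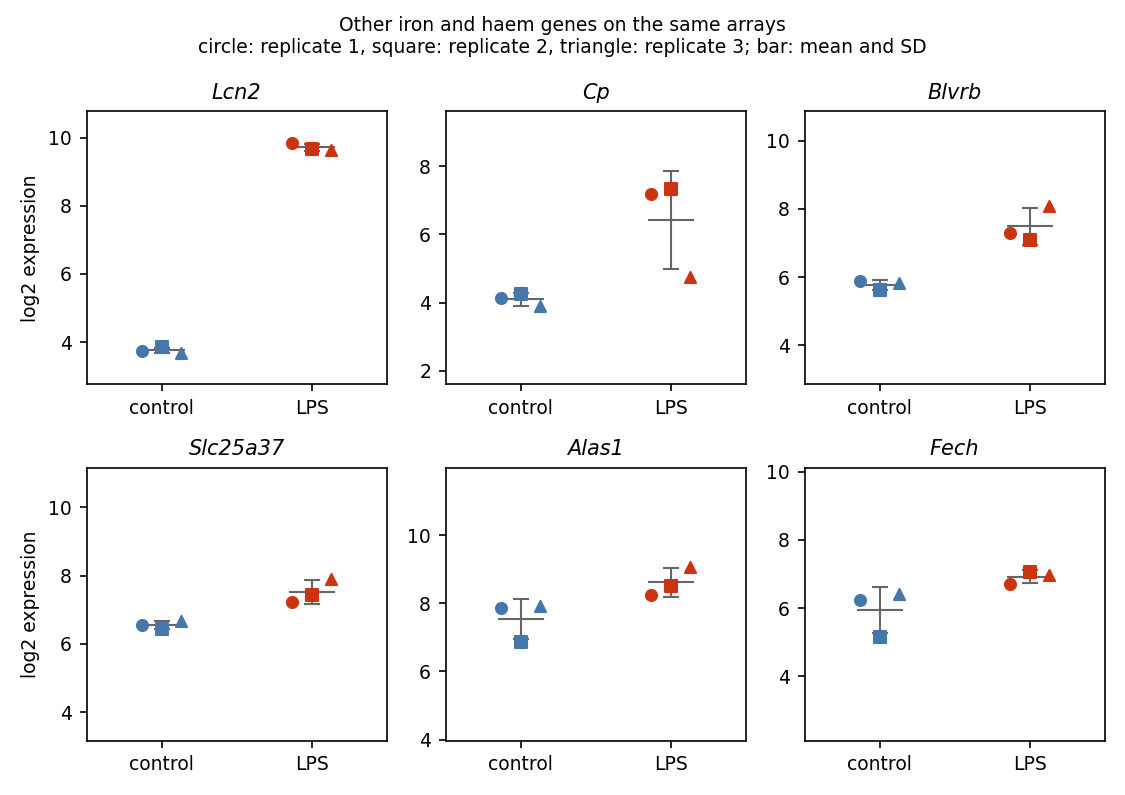
Log2 expression (vertical axis, the same span in every panel) of Lcn2, Cp, Blvrb, Slc25a37, Alas1 and Fech on 3 control arrays (blue) and 3 LPS arrays (red), with the mean and SD of each group. Groups do not overlap in any of the 6 panels, and LPS replicate 3 of Cp, at 4.75, lies close to the controls.

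Of 6 further genes of mitochondrial iron and iron-sulphur clusters 0 passed. The mitochondrial iron importer mitoferrin 1, Slc25a37, read 6.55, 6.43 and 6.66 in controls and 7.22, 7.43 and 7.90 after LPS, 0.97 log2 units more (SE 0.20; limma adjusted p = 0.28). Its relative Slc25a28, picked for comparison with values known, had 0.27 with overlapping groups. None of 5 further genes of the transferrin cycle and ferrous transport, 5 of ferritin handling, 5 of iron sensing or 6 of hepcidin signalling passed, with 0 called in each. The ferritin cargo receptor Ncoa4 had a log2 fold change of -0.22 (-0.10 without LPS replicate 1, -0.44 without control replicate 2 and -0.41 after quantile normalization) and iron regulatory protein 1, Aco1, one of 0.06, with the sign of the latter turned in 4 of 15 alternative fits. The zinc and iron importers Slc39a14 and Slc39a8, examples chosen after the values were seen, had 0.11 and 0.02, the second below the guide.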

How the data were processed

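RNA of 3 control and 3 LPS arrays of BV-2 cells was labelled with the GeneChip WT PLUS kit, per the labels' protocols. The values are log2 expression per transcript cluster as the authors deposited them, for which the submitters' processing notes name Affymetrix Expression Console. Its version, background correction and normalization are not given in the sources used here, so fold changes at low signal may be biased. Of 41345 rows, 23521 carry 1 gene symbol, 1814 several and 16010 none in the platform annotation, and a gene was named only from rows with 1 symbol, except for the shared Ftl1 rows. For each gene the row with the highest mean was used.

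LPS was compared with control with lmFit and eBayes of limma 3.58.1 (R 4.3.3, no trend, no filter), with Benjamini-Hochberg adjustment over all rows, a procedure tested on simulated data. Those data had independent noise in every row and array, and so lacked the shifts between arrays described above. Confidence intervals and SE are limma's moderated ones, and SD are of 3 arrays, a number that limits precision. Levels of different genes are not compared, since rows differ in their probes. Promoter letters come from RefSeq, GRCm38.p6. Members, lists, the naming rule and alternatives were chosen with earlier results of these data known. Named were all 10 members, listed genes past adjusted p 0.05 or past unadjusted p 0.05 without overlap between groups, and Lcn2, Ncoa4, Aco1, Cp and Hamp, with exceptions marked. Alternatives covered normalization, rows tested, moderation, array weights, a replicate block and arrays left out.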

Additional observations from a re-analysis of the deposited data

How the results depend on the processing

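The 9 genes with a row of their own and 9 named others were recomputed under 15 alternatives, giving 269 values. Of these, 255 kept their direction and their side of adjusted p 0.05, 5 passed it where they had not, 0 lost a call and 9 changed sign. Only Lcn2 was called in the main fit, so only its values could lose a call. Changes of size alone are not counted, such as Hmox1 at 0.37 against 0.94 in the main fit. Members called higher numbered 1, Slc11a2, once control replicate 2 and LPS replicate 3 were dropped together (152 of all rows higher and 67 lower, against 80 and 0), and 0 under the other alternatives, and 0 were called lower. With 1 array left out, members at an unadjusted p under 0.05 numbered 1 to 5 higher and 0 to 1 lower. The fewest higher were 1 (Slc11a2) without control replicate 1 and 2 without control replicate 3. Hfe was lower without control replicate 2. Shares of all rows at this threshold were not computed for these fits. In a check chosen after seeing the data, every LPS array lay above every control for 4 members after quantile normalization, where Fth1 dropped out. After median centring the number was 5. With arrays left out it was 5 to 6, the sixth being Ireb2 without control replicate 1 and Tfrc without LPS replicate 3. Leaving arrays out can only keep or raise this number. The 7.74% of rows and 14.2% of genes above the guide hold for all 6 arrays as deposited and were not recomputed in these settings. The members' median log2 fold change ran from 0.25 to 0.43 with 1 array left out. Called genes of the wider list, members included, numbered 2 where only rows with 1 symbol were tested and 2 with 1 row per gene, where Blvrb passed, 1 to 2 with 1 array left out, and 3 without control replicate 2 and LPS replicate 3 (Lcn2, Cp and Slc11a2). Signs turned for Ireb2, Steap3, Aco1 and Hfe, whose log2 fold changes were 0.19, 0.10, 0.06 and -0.27 in the main fit. After quantile normalization Ireb2 had -0.0055, Steap3 -0.0846 and Aco1 -0.11. Without control replicate 2 Ireb2 had -0.0024 and Aco1 -0.17, and without control replicate 3 Hfe had 0.0053. Aco1 had -0.14 without LPS replicate 2, and Steap3 had -0.10 without LPS replicate 3. Without both control replicate 2 and LPS replicate 3 Aco1 had -0.0866. With 1 array left out, Ireb2 ran from -0.0024 to 0.34, Steap3 from -0.10 to 0.28, Hfe from -0.57 to 0.0053, Tfrc from 0.04 to 0.43, Ncoa4 from -0.44 to -0.10 and Aco1 from -0.17 to 0.20. The cause was not tested. The replicate numbers are not stated to pair the arrays. Over all rows, deviations from the group means correlated at 0.07, -0.26 and -0.22 for numbers 1, 2 and 3. These values cannot show whether arrays of a number were handled together. With the replicate number as a block, 0 members were called and Slc11a2 kept 1.74 (limma adjusted p = 0.46). Another row per gene was not run, since no member had a second row of its own.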

Other observations

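Further iron and haem genes, named here for their values, differed between LPS replicate 3 and the mean of LPS replicates 1 and 2. The lysosomal cation channel Mcoln1, which releases iron from lysosomes, read 6.67 and 6.95 in LPS replicates 1 and 2 and 7.95 in LPS replicate 3, against 6.71 to 6.95 in controls. The haem exporter Flvcr1 exceeded that mean by 0.98 in LPS replicate 3, and Lrp1, a receptor for haem bound to hemopexin, by 0.91, while the mitochondrial iron-sulphur protein Cisd1 differed by -0.51. Over the 52 genes of the wider list that are not among the 9, the median of this difference was 0.02, and 28 were higher in LPS replicate 3. These values come from 1 array and were not tested.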
